A study of Mus musculus with 54 samples.

Results

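The genes described here are 7 of the 54356 that the deposited heart and liver tables list: Gm15387, Ptges3-ps, Gm6206, Gm6361, AL731706.2, Gm10524 and Ptges3. The first 6 were chosen by their measured values, because they had no reads in some genotypes, and Ptges3 was added as the coding gene that Ptges3-ps copies. The heart values of those 6 genes are therefore given as a description, with no test. The stated ground names both tissues, so liver tests of these genes are not independent support either. They were gathered as processed pseudogenes changed in mutant hearts, and the annotation bears this out for 4 of the 7, Gm15387, Ptges3-ps, Gm6206 and Gm6361. AL731706.2 and Ptges3 are annotated as protein coding. Gm10524 belongs to the class that the annotation keeps for loci whose coding status is unsettled, and it had reads in all 18 mouse and tissue pairs, so the stated ground of the choice does not hold for it.

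The data are total RNA sequencing of whole hearts and livers from C57BL/6 mice, all male, 20 weeks old and fed a diet with 42% of its energy from fat. The 3 genotypes were Mrps12+/+ (control), Mrps12ep/ep, which carries an error-prone form of the mitochondrial ribosomal protein MRPS12, and Mrps12ha/ha, which carries a hyper-accurate form. Both mutant genotypes were homozygous for the changed allele. Each genotype had 3 mice per tissue, and the 3 technical libraries of a mouse had been merged into 1 column, so n = 3 throughout. Control, Mrps12ep/ep and Mrps12ha/ha hearts held 37101141 to 51480512, 33825970 to 50551076 and 11202864 to 47813556 estimated reads, and livers held 21238166 to 81518015. The shallowest library was the heart of Mrps12ha/ha mouse 2, and the heart of Mrps12ha/ha mouse 1 came next with 17916538 estimated reads. Mouse 2 stood apart: without it the number of genes called between Mrps12ha/ha and control hearts went from 5 to 4330. Whether depth had a part in this was not tested. Cardiomyocyte markers (Myh6, Actc1, Tnnt2 and 4 others) summed to 2364033.5 to 2663606.4 normalized counts in control, 2050357.5 to 2728059.7 in Mrps12ep/ep and 2792254.6 to 3496295.5 in Mrps12ha/ha hearts. Every Mrps12ha/ha heart thus lay above every other heart, and the part of this in the heart results was not tested. The 7 hepatocyte markers summed to 4982051.8 to 5722494.3 in control, 6119161.6 to 6674243.4 in Mrps12ep/ep and 6051009.7 to 6609261.5 in Mrps12ha/ha livers. Every control liver thus lay below every mutant liver. In control, Mrps12ep/ep and Mrps12ha/ha livers, skeletal muscle markers summed to at most 19492.6, 130.2 and 215.2, and cardiomyocyte markers to at most 386.5, 459.3 and 7851.0. The part of these in the liver results was not tested. Erythroid markers summed to 59007.8 to 151765.8 in control, 86054.3 to 140405.9 in Mrps12ep/ep and 127605.0 to 940821.1 in Mrps12ha/ha hearts, and atrial markers to 8107.5 to 162740.4, 1682.1 to 377880.7 and 4551.3 to 10279.3, and their part in the heart results was not tested. Mrps12 itself spanned 1027.6 to 1155.6 normalized counts in control hearts, 1065.9 to 1291.8 in Mrps12ep/ep hearts and 1084.2 to 1396.9 in Mrps12ha/ha hearts, and its level cannot check the labels because the mutations change its sequence.

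A processed pseudogene arises when a messenger RNA is copied back into DNA and inserted elsewhere in the genome. It therefore has the coding gene's spliced sequence without its introns, and mostly without its promoter, and few such copies are transcribed in their own right. A young copy differs from its parent by few bases, so a short read from the parent's messenger RNA can match both. The parents here have well known roles. Ptges3 encodes p23, a co-chaperone that holds HSP90 in its client-bound state and that also acts as a cytosolic prostaglandin E synthase. Hmgb1 encodes a chromatin protein that bends DNA and acts as a danger signal outside cells, Cop1 an E3 ubiquitin ligase, and Ube2v2 a ubiquitin-conjugating enzyme variant that works with UBE2N.

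The 4 processed pseudogenes lie on chromosomes that do not hold Mrps12 (chr7). In GRCm38 with the GENCODE vM21 annotation, Ptges3-ps is a single exon of 480 bases at chr6:85843980-85844459 on the plus strand, between Nat8 and Nat8f2, while Ptges3 is at chr10:128058954-128077272. Gm15387 is a single exon of 648 bases at chr15:74093686-74094333 on the minus strand, with 421862 bases to the nearest gene at a higher coordinate, Adgrb1. Gm6361 is a single exon of 435 bases at chr15:31446383-31446817, inside the span of Ropn1l and on its strand but in none of its exons. Gm6206 lies at chrX:103163110-103165407 on the minus strand and is annotated as 2 exons with a transcript of 2199 bases. AL731706.2 is different in kind: its 180 bases at chr2:136885500-136885679 lie wholly inside exons of Mkks and of AL731706.1 on the same strand, in untranslated parts of both.

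The sequences show how near each pseudogene is to its parent. They were read from the GENCODE vM21 transcripts and are given 5′ to 3′ on the transcript strand. The first 120 bases of Ptges3-ps (chr6:85843980-85844099) are shown because they, like all 480 bases of the gene, are the same as the coding sequence of Ptges3.
Ptges3-ps and Ptges3: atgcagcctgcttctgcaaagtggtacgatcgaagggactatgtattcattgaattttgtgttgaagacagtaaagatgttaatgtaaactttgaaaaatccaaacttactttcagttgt
The first 120 bases of Gm6361 (chr15:31446698-31446817, minus strand) are likewise those of the Ube2v2 coding sequence, and the match runs over all 435 bases.
Gm6361 and Ube2v2: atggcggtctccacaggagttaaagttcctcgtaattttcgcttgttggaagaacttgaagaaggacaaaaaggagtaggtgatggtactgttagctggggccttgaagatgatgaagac
Gm15387 differs from the Hmgb1 coding sequence at 1 of 648 bases, A21G, with positions counted from 1 at the first base of the pseudogene and the parent's base first. Capitals mark that base in the first 51 bases (chr15:74094283-74094333, minus strand) and in the same stretch of Hmgb1.
Gm15387: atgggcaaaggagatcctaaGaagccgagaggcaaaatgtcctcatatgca
Hmgb1: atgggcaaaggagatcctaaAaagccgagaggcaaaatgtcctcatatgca
Gm6206 differs from the Cop1 coding sequence at 4 bases, G138T, A684G, C996T and A1827G, and lacks 3 bases of Cop1 after its position 834. Capitals mark the first of these in bases 108 to 168 (chrX:103165240-103165300, minus strand).
Gm6206: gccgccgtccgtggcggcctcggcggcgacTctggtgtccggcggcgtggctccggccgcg
Cop1: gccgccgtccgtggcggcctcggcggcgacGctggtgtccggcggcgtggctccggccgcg

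Counted over the whole annotation, these copies leave little or no sequence of their own. Of the 31-base stretches in Ptges3-ps (450), Gm6361 (405), Gm15387 (618) and AL731706.2 (150), none was absent from the transcripts of all other genes. Even the base that separates Gm15387 from Hmgb1 is shared with another pseudogene, Gm21596, which holds all 648 bases. Gm6206 had 153 such stretches of 2169 (7.1%). By the same count Ptges3 had 79.4% of its stretches to itself and Gm10524 had 70.3%. The deposited values come from an estimate that divides reads among matching transcripts, so a count on 1 of the first 4 genes, and likewise a 0, is uncertain between the copies, and each is set beside its parent below.

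In hearts, Gm15387, the copy of the Hmgb1 coding sequence, was the most abundant of the pseudogenes. Its normalized counts were 497.7, 679.2 and 558.5 in control hearts, 387.3, 314.3 and 413.2 in Mrps12ep/ep hearts, and 0 in all 3 Mrps12ha/ha hearts. All Mrps12ep/ep hearts thus lay below all control hearts, and the Mrps12ha/ha hearts held none. Its mean was 578.5 ± 92.4 (SD, n = 3) in controls and 371.6 ± 51.3 in Mrps12ep/ep. Set against a floor of 3 reads in each Mrps12ha/ha library, its estimated count was at least 104-fold lower there than in controls. Compared with Mrps12ep/ep, that count was at least 66.9-fold lower. For comparison, 3.64% of the 16057 genes tested in hearts (those averaging 10 or more normalized counts) had all Mrps12ep/ep hearts below all controls.

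Ptges3-ps, the copy of the p23 coding sequence, was present at like levels in control and Mrps12ep/ep hearts and at 0 in Mrps12ha/ha hearts. It had 159.3, 117.7 and 142.1 normalized counts in control hearts, 102.0, 159.5 and 190.7 in Mrps12ep/ep hearts, and 0 in each Mrps12ha/ha heart. The control and Mrps12ep/ep values overlapped, with means of 139.7 ± 20.9 and 150.7 ± 45.0 (SD, n = 3). Against the same floor the Mrps12ha/ha hearts were at least 25.2-fold below controls and at least 27.1-fold below Mrps12ep/ep.

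Gm6206, the copy of Cop1, followed the same order but varied more between mice of a genotype. Control hearts had 153.3, 155.7 and 65.4 normalized counts, Mrps12ep/ep hearts had 55.5, 111.3 and 102.6, and Mrps12ha/ha hearts had 0 in each. Control mouse 3 fell among the Mrps12ep/ep hearts, so these groups overlapped. The Mrps12ha/ha hearts were at least 22.5-fold below controls and at least 16.2-fold below Mrps12ep/ep.

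Gm6361 and AL731706.2 had other patterns, and their levels were low. Gm6361, the copy of Ube2v2, had 68.9, 50.2 and 51.6 normalized counts in control hearts and 0 in all 6 mutant hearts, at least 23.0-fold lower in Mrps12ep/ep and at least 10.2-fold lower in Mrps12ha/ha. It was the only one of the 7 genes at 0 in both mutants. AL731706.2 had 30, 37 and 44 reads in control hearts, 0 in each Mrps12ep/ep heart, and 7, 11 and 39 reads in Mrps12ha/ha hearts. In normalized counts this was 28.5 ± 3.18 (SD, n = 3) in controls and 24.4 ± 10.4 in Mrps12ha/ha, where it ranged from 12.9 to 33.2 across the controls' range. It was at least 11.5-fold lower in Mrps12ep/ep than in controls and at least 9.83-fold lower than in Mrps12ha/ha. The floors of 3 reads cover counting error only, not reads that the estimate assigned to another copy, so these bounds hold for estimated counts. The lowest count above 0 in hearts, nearest to the limit of the choice, was the 7 reads of AL731706.2 in Mrps12ha/ha mouse 1.

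**Figure D1:**
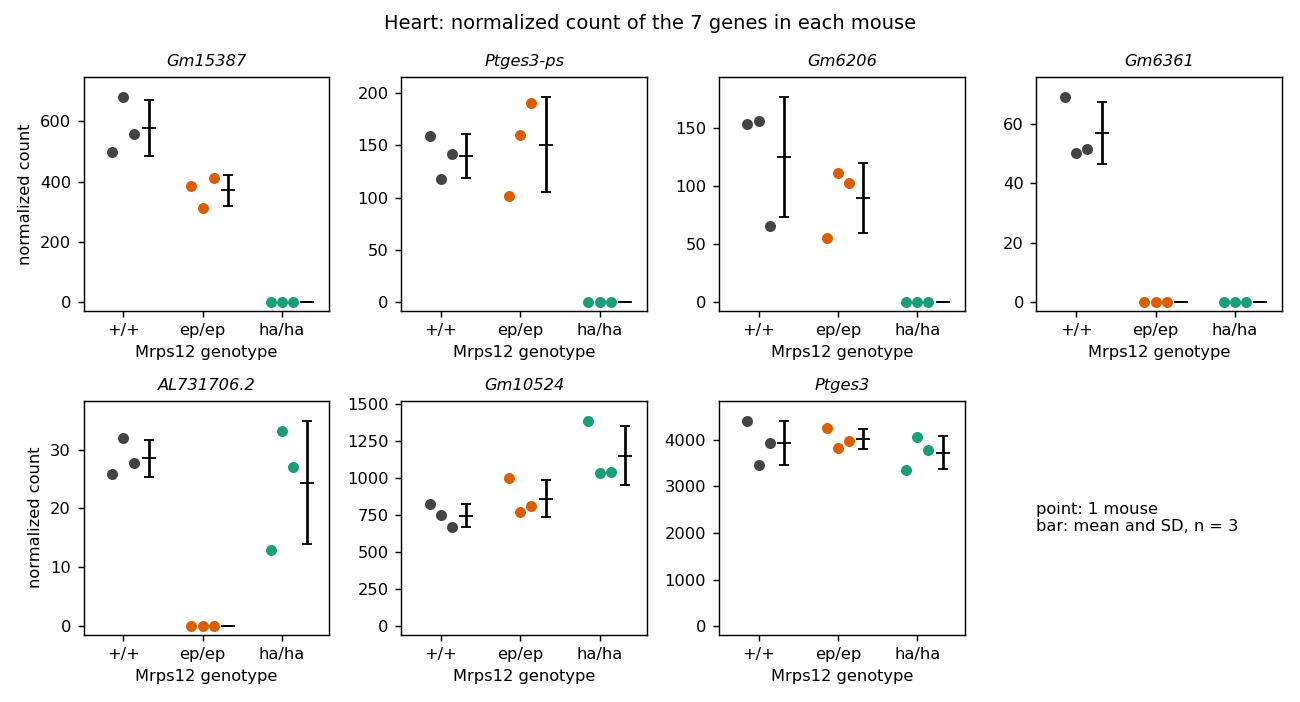
Normalized count (linear axis) of each of the 7 genes in the 9 hearts, by Mrps12 genotype. Each point is 1 mouse and each bar the mean and SD of 3 mice. Gm15387, Ptges3-ps and Gm6206 are at 0 in the 3 Mrps12ha/ha hearts, Gm6361 in all 6 mutant hearts and AL731706.2 in the 3 Mrps12ep/ep hearts, while Gm10524 and Ptges3 have reads in every heart.

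The parent of Ptges3-ps was present in every heart, and no difference between genotypes passed the threshold. Ptges3 had 4390.0, 3452.2 and 3923.0 normalized counts in control hearts, 4241.8, 3825.0 and 3974.0 in Mrps12ep/ep hearts and 3339.1, 4049.9 and 3779.4 in Mrps12ha/ha hearts. All 3 groups overlapped. In a limma fit of log2(normalized count + 1) across 16057 genes, Ptges3 differed by -0.07 ± 0.12 (SE, log2) between Mrps12ha/ha and controls, with a 95% interval from -0.35 to 0.20 and an adjusted p of 0.743. It differed by 0.04 ± 0.12 between Mrps12ep/ep and controls (limma adjusted p = 1). In control hearts the Ptges3-ps reads were 3.43% ± 0.12 (SD, n = 3) of the reads on the pair. The interval above is too wide to show a change of that size in Ptges3. The summed level of Ptges3 and Ptges3-ps was 4061 ± 489.7 in control, 4164 ± 179.7 in Mrps12ep/ep and 3723 ± 358.8 in Mrps12ha/ha hearts. The sum holds the Ptges3-ps values that the choice used, so it carries no test.

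The other parents were also present in every heart, and with all 9 mice and equal weights none passed the threshold of adjusted p 0.05 in any of the 3 comparisons (limma). With weights fitted to each library, Hmgb1 and Ube2v2 passed between Mrps12ha/ha and Mrps12ep/ep (log2 differences -0.26 and -0.43, limma adjusted p = 0.0215 and 0.0223). Mkks and Cop1 passed there too (-0.355 and -0.964, limma adjusted p = 0.0153 and 0.00228). Both also passed between Mrps12ha/ha and controls (-0.379 and -0.906, limma adjusted p = 0.0169 and 0.00474). With these weights 6314 and 5573 of all 16057 genes passed in the 2 comparisons. Hmgb1 spanned 6959.6 to 7041.1 normalized counts in control hearts, 6891.5 to 7529.4 in Mrps12ep/ep hearts and 6047.7 to 7680.1 in Mrps12ha/ha hearts. Its log2 difference between Mrps12ha/ha and controls was -0.08 ± 0.12 (SE), with a 95% interval from -0.34 to 0.18. Ube2v2 spanned 670.5 to 833.6 in controls, 747.5 to 912.7 in Mrps12ep/ep and 629.5 to 960.4 in Mrps12ha/ha hearts, and differed from controls by 0.09 ± 0.18 in Mrps12ep/ep and by -0.07 ± 0.18 in Mrps12ha/ha on the log2 scale. AL731706.1 and Mkks, which contain AL731706.2, were at 819.9 ± 48.0 and 983.9 ± 67.5 in controls and at 802.4 ± 122.1 and 923.7 ± 62.2 in Mrps12ep/ep, where AL731706.2 was at 0. Mkks differed by -0.31 ± 0.15 between Mrps12ha/ha and controls (limma adjusted p = 0.266), and by -0.46 with an adjusted p of 0.0166 without Mrps12ha/ha mouse 2. Against Mrps12ep/ep its difference was -0.22 ± 0.15 (adjusted p = 0.413), and -0.37 with an adjusted p of 0.0403 without that mouse. Without it 27% and 23.2% of all tested genes passed in these comparisons.

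Cop1 was the parent whose values were most uneven. It had 3471.2, 2963.3 and 3475.3 normalized counts in control hearts, 3611.8, 2816.6 and 3390.1 in Mrps12ep/ep hearts and 1435.8, 3983.5 and 1717.1 in Mrps12ha/ha hearts. Mice 1 and 3 of Mrps12ha/ha lay below every control and mouse 2, the shallowest library, lay above every control. The log2 difference from controls was -0.62 ± 0.32 (limma adjusted p = 0.293). It was -1.07 with an adjusted p of 0.00316 when mouse 2 was left out, where 27% of all tested genes passed. Gm6206 was at 0 in all 3 of these hearts, whichever level Cop1 had.

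Each pseudogene was a small share of the reads on itself and its parent. Gm15387 made up 6.67% to 8.81% of the pair's reads in control hearts and 4.36% to 5.23% in Mrps12ep/ep hearts. Gm6206 made up 1.85% to 4.99% and 1.51% to 3.80%, Gm6361 made up 5.99% to 7.63% in controls, and Ptges3-ps 3.43% ± 0.12 in controls and 2.35% to 4.58% in Mrps12ep/ep. Whether the reads went to the parent in the estimate was not tested.

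**Figure D2:**
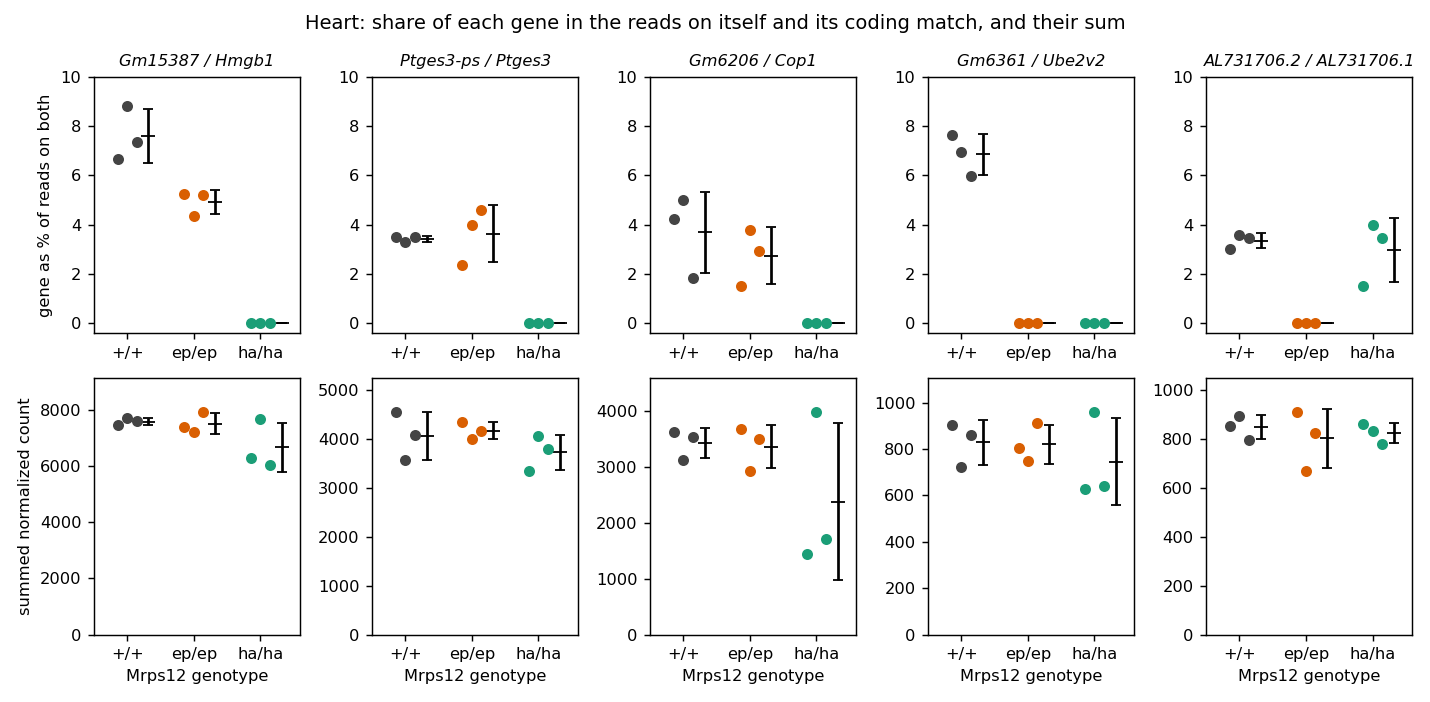
Upper row: reads on the gene as a percentage of the reads on the gene and its coding match, in each heart. Lower row: summed normalized count of both (linear axes from 0). Points are mice and bars the mean and SD of 3 mice. The share is 0 in whole genotypes while the sums overlap between genotypes, and the Cop1 sums of Mrps12ha/ha mice 1 and 3 (1435.8 and 1717.1) lie below the others.

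Zeros that follow genotype were rare in the hearts, and the chosen genes are among them by construction. At 0 in every Mrps12ha/ha heart, and above 0 in every control heart with a mean there of at least 10, were 9 of 15980 genes (0.0563%), of which 5 were processed pseudogenes and 4 were members. Against Mrps12ep/ep hearts, 12 of 15959 genes (0.0752%) were at 0 in every Mrps12ha/ha heart, 3 of them members. At 0 in every Mrps12ep/ep heart were 3 of 15980 genes (0.0188%) present in every control heart, 2 of them members, and 4 of 16062 (0.0249%) present in every Mrps12ha/ha heart, 1 of them a member. At 0 in every control heart were 0 of 15959 genes present in every Mrps12ep/ep heart and 4 of 16062 (0.0249%) present in every Mrps12ha/ha heart, 3 of these 4 processed pseudogenes and none a member. Both mutants are set against the same control mice in these counts.

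Some members also passed the limma threshold in comparisons used to choose them, which adds nothing to their choice. In Mrps12ha/ha against control hearts 5 of 16057 genes (0.0311%) passed, Gm15387, Ptges3-ps, Gm6206, Gm6361 and Irs2. In Mrps12ha/ha against Mrps12ep/ep hearts 4 genes (0.0249%) passed, Gm15387, Ptges3-ps, Gm6206 and AL731706.2. Between Mrps12ep/ep and controls none passed (0%), with 271 genes at an unadjusted p under 0.05 and 2 called with limma-voom.

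Other genes with zeros along genotype in hearts included a further run of pseudogenes. Sms-ps, a processed pseudogene, had 205.1, 156.6 and 131.7 normalized counts in Mrps12ep/ep hearts and 0 in each Mrps12ha/ha heart, but it was also at 0 in control mouse 2. Gm7334 had 38.8, 70.9 and 101.3 in control hearts and 0 in Mrps12ha/ha, with 0, 0 and 60.8 in Mrps12ep/ep. Gm11966 went the other way, at 0 in all 6 control and Mrps12ep/ep hearts and at 25.8, 30.2 and 25.6 in Mrps12ha/ha hearts. The coding gene Gm20425 had 130.8, 276.6 and 430.5 in Mrps12ep/ep hearts and 0 in Mrps12ha/ha, and was at 0 in control mouse 2. Among the others of the 10 most abundant, A730046J19Rik, Bnc1, Prr15l, Ugt1a5 and Fxyd3 had means of 17.9 to 43.7 in the genotype that held them.

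Across processed pseudogenes, a mouse at 0 beside a mouse with many reads was more frequent where the sequence was shared. The pattern was not counted for other gene types. Of 196 processed pseudogenes with a heart mean of at least 10, 33 were at 0 in at least 1 heart and at 30 or more in another. Those 33 were 20 of the 48 (41.7%) with no 31-base stretch of their own, 12 of the 97 (12.4%) with less than 50% of their stretches to themselves, and 1 of the 51 (2.0%) with 50% or more. In livers the shares were 37.2%, 18.8% and 0.0%. In 29 of the 33 heart cases the zeros split a genotype, and in 4 (12.1%) they filled whole genotypes: these 4 were Gm15387, Ptges3-ps, Gm6206 and Gm6361, which were chosen for such zeros, so that count restates the choice. They also stand among the 20 (3 of them) and the 12 (1 of them). In livers, zeros filled whole genotypes in 0 of 34 such pseudogenes. These are counts over genes that share reads and libraries, and carry no test.

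**Figure D3:**
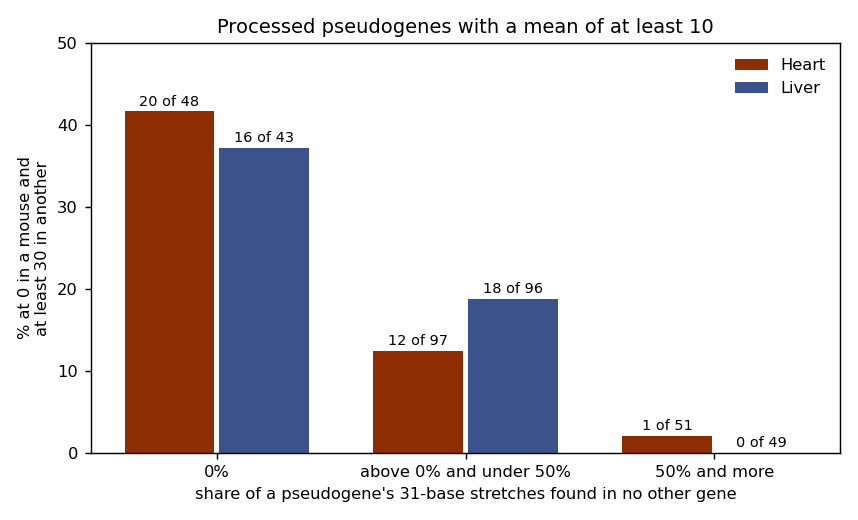
Percentage of processed pseudogenes (mean of at least 10 normalized counts) that were at 0 in at least 1 mouse and at 30 or more in another, by the share of their 31-base stretches found in no other gene, for hearts and livers. Numbers above the bars give the genes counted. The share falls from 41.7% to 2.0% in hearts and from 37.2% to 0.0% in livers as more of the sequence is a gene's own.

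In livers, Gm6206, Gm6361 and AL731706.2 were at 0 in all 9 samples, while Cop1 spanned 1762.0 to 2538.4 normalized counts there, Ube2v2 937.1 to 2345.5 and AL731706.1 483.1 to 661.3. Ptges3-ps was at 0 in 8 livers and at 42 reads in Mrps12ha/ha mouse 1.

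Gm15387 was well represented in every liver, including those of Mrps12ha/ha mice. It had 616.4, 724.5 and 626.1 normalized counts in control livers, 570.7, 803.0 and 654.7 in Mrps12ep/ep livers and 1054.4, 710.5 and 682.1 in Mrps12ha/ha livers. The 3 genotypes overlapped. The log2 difference between Mrps12ha/ha and control livers was 0.29 ± 0.19 (SE), with a 95% interval from -0.14 to 0.71 (limma adjusted p = 0.522 over 15314 genes), and that between Mrps12ep/ep and controls was 0.03 ± 0.19 (adjusted p = 0.971). Its share of the reads on Gm15387 and Hmgb1 was 7.99% ± 0.30 in control livers, 8.02% ± 2.13 in Mrps12ep/ep and 8.94% ± 2.28 in Mrps12ha/ha livers (SD, n = 3). The stated ground of the choice names both tissues, so these liver tests are not independent support. The difference between tissues was not tested, because the tables were scaled separately.

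Ptges3 was somewhat lower in Mrps12ha/ha livers, without passing the threshold. It had 6106.4, 6328.3 and 6320.0 normalized counts in control livers, 5955.6, 6640.7 and 6844.7 in Mrps12ep/ep livers and 5402.7, 5758.5 and 5564.6 in Mrps12ha/ha livers. Every Mrps12ha/ha liver lay below every control and every Mrps12ep/ep liver, as it did for 9.81% and 9.01% of all tested genes. The log2 difference was -0.17 ± 0.08 against controls (limma adjusted p = 0.4) and -0.21 ± 0.08 against Mrps12ep/ep (adjusted p = 0.539). Of the other parents, Ube2v2 differed from controls by -0.72 ± 0.20 in Mrps12ha/ha livers (adjusted p = 0.184, or 0.0483 without control mouse 2). Without that mouse 90 genes passed in this comparison. Every Mrps12ha/ha value of Ube2v2, 1147.2, 937.1 and 1140.6, lay below the controls' 1829.5, 1288.1 and 2345.5.

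**Figure D4:**
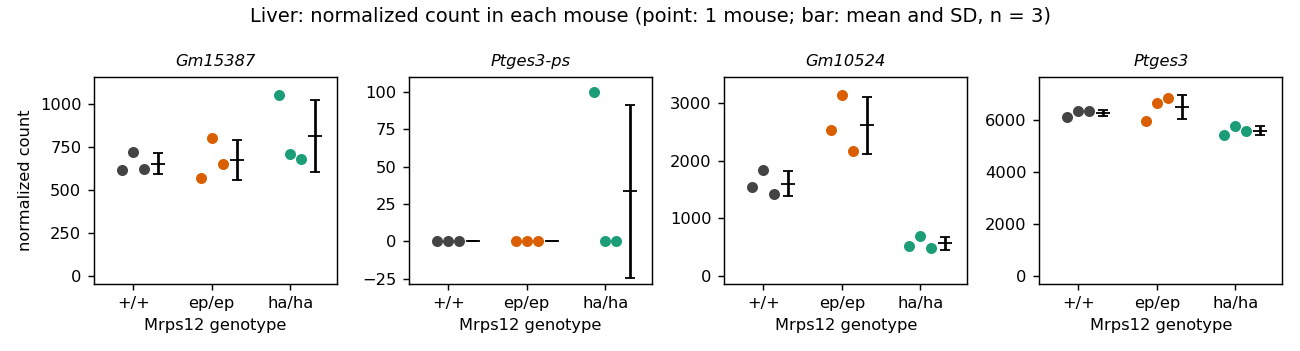
Normalized count (linear axis) in the 9 livers of the 4 genes that had reads in any liver, by Mrps12 genotype. Points are mice and bars the mean and SD of 3 mice. Gm15387 is present in every liver, Ptges3-ps in Mrps12ha/ha mouse 1 only, and Gm10524 is lowest in Mrps12ha/ha and highest in Mrps12ep/ep livers.

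Gm10524 had reads in every heart and liver. It is a single exon of 1893 bases at chr18:82692284-82694176 on the plus strand, matched no coding transcript at 80% identity over 50% of its length, overlaps the start of Zfp236 on the other strand, and ends 111 bases before the long noncoding RNA gene AC158975.2 on its own strand. Its normalized counts in hearts were 826.7, 749.3 and 669.8 in controls, 1004.5, 769.5 and 810.1 in Mrps12ep/ep and 1384.2, 1035.9 and 1040.8 in Mrps12ha/ha. Every Mrps12ha/ha heart lay above every control and every Mrps12ep/ep heart, as it did for 11.1% and 8.77% of all tested genes. The means were 748.6 ± 78.4 in controls, 861.4 ± 125.6 in Mrps12ep/ep and 1154 ± 199.7 in Mrps12ha/ha hearts.

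In livers Gm10524 was lowest, not highest, in Mrps12ha/ha, while its Mrps12ep/ep mean was above that of controls in both tissues. It had 1544.8, 1841.2 and 1421.8 normalized counts in control livers, 2521.9, 3133.9 and 2170.6 in Mrps12ep/ep livers and 521.2, 694.8 and 488.7 in Mrps12ha/ha livers, with no overlap between any 2 genotypes. Of all tested genes, 6.49% had every Mrps12ep/ep liver above every control. Between Mrps12ha/ha and Mrps12ep/ep livers the log2 difference was -2.20 ± 0.18 (SE), a 4.59-fold lower level, and Gm10524 was the only gene of 15314 to pass (0.00653%, limma adjusted p = 0.00623). The adjusted p was 0.0732 without Mrps12ep/ep mouse 1 and 0.0587 without Mrps12ha/ha mouse 3. Against controls the log2 difference was -1.50 ± 0.18 in Mrps12ha/ha livers (adjusted p = 0.0584). Over 18 alternatives that adjusted p ranged from 0.0057 to 0.279 and was under 0.05 in 6. Among these were the fits without control mouse 2 (0.0335, with 90 genes passing), control mouse 3 (0.0147, with 76) and Mrps12ha/ha mouse 2 (0.033, with 6). The difference was 0.69 ± 0.18 in Mrps12ep/ep livers (adjusted p = 0.382), and the 1 gene of 15314 (0.00653%) that passed in each of these comparisons was not a member. Because its heart values do not show why Gm10524 was chosen, these liver values may have been the reason, and the test is not independent support.

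The neighbouring AC158975.2 was lowest in Mrps12ha/ha livers, as was Gm10524, but passed in no liver comparison with all 9 mice and equal weights. It had 11415.8, 9080.0 and 11867.1 normalized counts in control livers, 14720.8, 10109.2 and 12912.7 in Mrps12ep/ep livers and 3215.4, 4832.3 and 2741.8 in Mrps12ha/ha livers. Its log2 difference was -1.62 ± 0.22 between Mrps12ha/ha and controls (limma adjusted p = 0.0584) and -1.83 ± 0.22 between Mrps12ha/ha and Mrps12ep/ep (adjusted p = 0.066). Over 18 alternatives these adjusted p ranged from 0.0329 to 0.279, under 0.05 in 3, and from 0.00783 to 0.445, under 0.05 in 5. Mrps12ep/ep and control livers overlapped for AC158975.2 (0.21 ± 0.22, adjusted p = 0.762). Zfp236, a zinc finger gene on the other strand, spanned 690.6 to 979.5 in control and 498.0 to 606.9 in Mrps12ha/ha livers (log2 difference -0.56 ± 0.19, adjusted p = 0.244). In hearts AC158975.2 had 1581.2, 3424.8 and 2006.9 in Mrps12ha/ha against 2826.2 to 2959.7 in controls, a log2 difference of -0.38 ± 0.23 (adjusted p = 0.353). It became -0.70 with an adjusted p of 0.00544 without Mrps12ha/ha mouse 2, where 27% of all tested genes passed. Whether Gm10524 and AC158975.2 are parts of 1 transcript was not tested. In whole tissue, fewer cells of a type and less RNA per cell cannot be told apart.

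**Figure D5:**
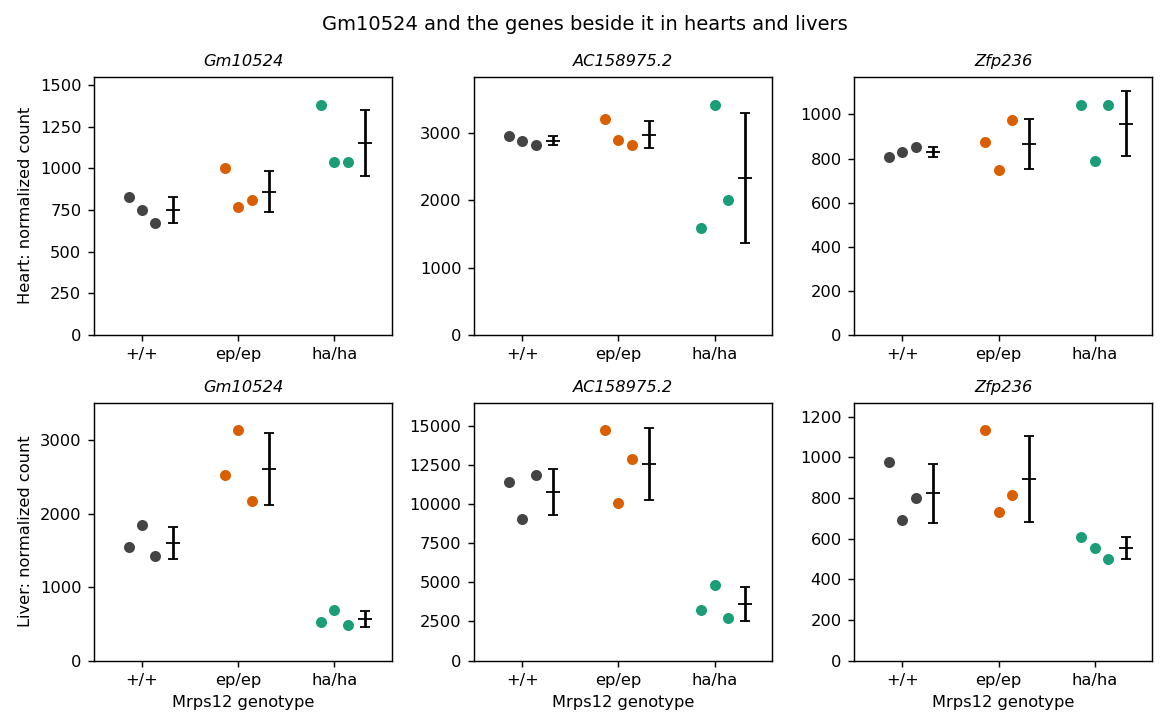
Normalized count (linear axes from 0) of Gm10524, of AC158975.2 on the same strand and of Zfp236 on the other strand, in hearts (upper row) and livers (lower row). Points are mice and bars the mean and SD of 3 mice. In livers Gm10524 and AC158975.2 are both lowest in Mrps12ha/ha, and in hearts Gm10524 is highest there.

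Over the 9 hearts, the genes whose log2 levels were most like each pseudogene were for the most part the other pseudogenes. Gm15387 was closest to Ptges3-ps and Gm6206 (Pearson r = 0.994 and 0.990), Ptges3-ps to Gm15387 and Gm6206 (0.994 and 0.991), and Gm6206 to Ptges3-ps and Gm15387, values set by the shared zeros. Gm6361 was closest to Nsun6 and Dph5 (0.937 and 0.899) and AL731706.2 to Accs and Vps11 (0.960 and 0.946). Gm10524 was closest to Fam84b and Plk2 (0.985 and 0.980). Plk2, a polo-like kinase, had 778.5, 578.8 and 486.1 normalized counts in control, 922.3, 644.3 and 811.9 in Mrps12ep/ep and 1722.9, 990.6 and 1048.4 in Mrps12ha/ha hearts. These coefficients describe the highest of all other tested genes over mice that share a scaling, and carry no test.

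The genes around p23 showed no call in either tissue. Of 28 listed HSP90 and co-chaperone genes, all 28 were tested and 0 passed in each of the 6 comparisons (limma). Their median log2 difference between Mrps12ha/ha and control hearts was -0.11, beside -0.02 for all tested genes, 5 had an unadjusted p under 0.05, beside 19.7% of all tested genes, and 9 passed without Mrps12ha/ha mouse 2, beside 27% of all. In Mrps12ha/ha against Mrps12ep/ep hearts 9 had an unadjusted p under 0.05, beside 17.9% of all, and 11 passed without that mouse, beside 23.2%. The 2 with the lowest p between Mrps12ha/ha and Mrps12ep/ep hearts were Ttc4, a co-chaperone with tetratricopeptide repeats (0.41 ± 0.11, adjusted p = 0.236), and Hsp90aa1, the stress-inducible HSP90 (-1.01 ± 0.28, adjusted p = 0.236). Hsp90aa1 had 15058.5, 8412.4 and 8258.6 normalized counts in control, 13878.5, 10740.3 and 12671.3 in Mrps12ep/ep and 4478.5, 8480.4 and 6042.1 in Mrps12ha/ha hearts. In livers the median log2 difference of the 28 was 0.039 between Mrps12ha/ha and controls, 0.114 between Mrps12ep/ep and controls and -0.135 between Mrps12ha/ha and Mrps12ep/ep. The medians of all tested genes were -0.017, -0.007 and -0.002. Above 0 were 18, 23 and 8 of the 28, and 1, 3 and 5 had an unadjusted p under 0.05, beside 14.1%, 9.74% and 8.62% of all. Fkbp4, an HSP90-binding immunophilin, had the lowest p between Mrps12ep/ep and control livers (0.61 ± 0.19, adjusted p = 0.433). The lowest p belonged to Hsp90b1, the HSP90 of the endoplasmic reticulum, between Mrps12ha/ha and control livers (-0.52 ± 0.17, adjusted p = 0.246) and to Cdc37l1 between Mrps12ha/ha and Mrps12ep/ep livers (-0.35 ± 0.10, adjusted p = 0.458). Ptges3l, the other gene named for Ptges3, had means of 963.9, 904.7 and 1059.9 in control, Mrps12ep/ep and Mrps12ha/ha hearts (adjusted p = 0.755 for Mrps12ha/ha against controls).

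Of 12 listed prostaglandin E2 genes, 11 were tested in each tissue and 0 passed in each of the 6 comparisons (limma). The lowest p between Mrps12ha/ha and control hearts was that of the receptor gene Ptger3, with 6.9, 17.3 and 128.3 normalized counts in control, 4.0, 35.4 and 9.1 in Mrps12ep/ep and 0, 0 and 5.5 in Mrps12ha/ha hearts (adjusted p = 0.21). Ptges, the inducible microsomal prostaglandin E synthase, had 36.2, 54.5 and 73.6 in control and 97.6, 129.9 and 105.8 in Mrps12ha/ha hearts (log2 difference 1.05 ± 0.42, adjusted p = 0.229). With Mrps12ha/ha mouse 2 left out, 1 of the 11 passed between Mrps12ha/ha and control hearts, beside 27% of all tested genes. In livers the lowest unadjusted p was that of Hpgd, which inactivates prostaglandins, at 0.38 ± 0.15 between Mrps12ep/ep and controls (adjusted p = 0.487). At an unadjusted p under 0.05 were 3, 0 and 0 of the 11 in hearts and 1, 1 and 0 in livers, for Mrps12ha/ha against controls, Mrps12ep/ep against controls and Mrps12ha/ha against Mrps12ep/ep. The shares of all tested genes were 19.7%, 1.69% and 17.9% in hearts and 14.1%, 9.74% and 8.62% in livers.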

How the data were processed

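Total RNA of hearts and livers was sequenced in 54 libraries, with each mouse's organ split over 3. The authors trimmed reads with Trim Galore 0.4.1 and cutadapt 1.18, merged a mouse's libraries, estimated transcript abundance with Salmon 1.1.0 against GENCODE vM21 (GRCm38), counting by strand, summed it per gene, and scaled each tissue with DESeq2, leaving out mitochondrial transcripts. The deposited values are these normalized counts, 1 column per mouse. The deposited tables of fold changes and p-values hold the authors' own comparisons and were not used. Low values were whole multiples of 1 step per column (within 0.1 read), which gave the estimated reads and depths.

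The members and gene lists were chosen with earlier results of these data known. Within each tissue, genes averaging 10 or more normalized counts were fitted on log2(normalized count + 1) with limma 3.58.1 (R 4.3.3, intensity trend, 3 genotypes in 1 fit, no block, two-sided, Benjamini-Hochberg adjustment over all tested genes, threshold 0.05), which was first tested on simulated data. Fold changes are on that scale and understate those of low genes. Parents and copies were found with BLAST+ 2.17.0 against the vM21 transcripts (coding parent: at least 80% identity over 50% of the length; near-identical copy: 98% over 90%). Named are the members, parents, neighbours, the 10 most abundant other heart genes with zeros along genotype, the 2 genes most like each member, and of each list the lowest p. One gene that this rule names is not reported here. Replicates are separate mice. The permutation test planned for the summed Ptges3 and Ptges3-ps level is not given, because the choice used Ptges3-ps.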

Additional observations from a re-analysis of the deposited data

Results flagged for a closer look

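Gm10524 moved in opposite directions in the 2 tissues of Mrps12ha/ha mice. It was singled out because every mouse of that genotype lay on the same side in each. Between Mrps12ha/ha and control mice, the log2 ratio of mean normalized counts was 0.62 in hearts, where every Mrps12ha/ha value was above every control, and -1.50 in livers, where every Mrps12ha/ha value was below. Between Mrps12ha/ha and Mrps12ep/ep mice it was 0.42 in hearts and -2.20 in livers, again with no overlap in either tissue. Every Mrps12ha/ha heart lay above every control for 11.1% of tested genes, and above every Mrps12ep/ep heart for 8.77%. Every Mrps12ha/ha liver lay below for 9.81% and 9.01%. The share that did so in both tissues was not computed. The liver values may have been the reason Gm10524 was chosen. The difference between the tissues was not tested, because the tables were scaled separately and the labels do not tie a heart to a liver. AC158975.2, 111 bases away on the same strand, had a lower value in every Mrps12ha/ha liver than in every control liver (limma adjusted p = 0.0584) and no higher mean in Mrps12ha/ha than in control hearts. With 3 mice in each group, single mice were not screened as outliers.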

How the results depend on the processing

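Of the 68 results recomputed, the counts of called genes moved most. Between Mrps12ha/ha and control hearts the 5 calls became 5573 with array weights, 3 with a replicate block and 3 with limma-voom (an alternative chosen after seeing the data), and 3 to 4330 when 1 mouse was left out. The 4 calls between Mrps12ha/ha and Mrps12ep/ep hearts became 6314 with array weights and 3 to 3730 with 1 mouse left out, the highest counts coming without Mrps12ha/ha mouse 2. The 0 calls between Mrps12ep/ep and control hearts became 1 with a pseudocount of 0.1 or 8 or with only the 2 genotypes, 2 without a filter or with limma-voom, 3 with array weights, and 0 to 1 with 1 mouse left out. In livers the 1 call between Mrps12ha/ha and controls became 0 with a pseudocount of 0.1, a mean of at least 50 or limma-voom, 3 without a filter, 4 with array weights, 7 with the block, and 0 to 90 with 1 mouse left out. The 1 call between Mrps12ep/ep and control livers became 0 with a pseudocount of 0.1, a mean of at least 50, only the 2 genotypes or limma-voom, 2 without a filter, 9 with the block, and 1 to 68 with 1 mouse left out. The 1 call between Mrps12ha/ha and Mrps12ep/ep livers became 18 with only the 2 genotypes, 13 with array weights, 6 with the block, and 0 to 11 with 1 mouse left out. The cause was not tested.

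The block uses the mouse numbers, which the labels do not tie to a litter or day. Deviations of same-numbered mice correlated between -0.22 and 0.65 in hearts and between -0.18 and 0.25 in livers. Those of differently numbered mice spanned -0.64 to 0.42 and -0.39 to 0.21. Control and Mrps12ep/ep hearts 1, 2 and 3 gave 0.650, 0.437 and -0.045 with their own number. Without a tie in the labels the numbers were not taken as pairs, and a factor shared by same-numbered hearts was not tested. With the block, Gm10524 differed by -1.50 between Mrps12ha/ha and control livers (limma adjusted p = 0.0057). That was the lowest adjusted p of 18 alternatives, which reached 0.279 and were under 0.05 in 6. Its liver values may have been the reason for its choice, so this is not independent support.

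Genes with zeros along genotype, summed over the 6 directions, numbered 32 in hearts and 30 in livers. With a mean of at least 50 they were 11 and 3, with at most 3 reads against more than 3 they were 93 and 75, and with 1 mouse left out 39 to 86 and 32 to 107. Called HSP90 genes between Mrps12ha/ha and control hearts ranged from 0 to 9 with 1 mouse left out, those between Mrps12ha/ha and Mrps12ep/ep from 0 to 11, and called prostaglandin E2 genes between Mrps12ha/ha and control hearts from 0 to 1.

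The only values to change sign were uncalled differences near 0. With array weights these were AC158975.2 (-0.004), AL731706.1 (0.002) and Cop1 (0.057) between Mrps12ep/ep and control hearts, AL731706.1 between Mrps12ha/ha and Mrps12ep/ep hearts (-0.074), and Gm15387 between Mrps12ep/ep and control livers (-0.072). With limma-voom they were AL731706.1 between Mrps12ha/ha and Mrps12ep/ep hearts (-0.070), Cop1 between Mrps12ep/ep and control hearts (0.023), and Gm15387 (-0.001) and Ptges3 (-0.002) between Mrps12ep/ep and control livers, where that scaling put the median of all genes at -0.06. Re-centring gave 0.003 for AL731706.1 between Mrps12ha/ha and control hearts. On library-scaled reads, the Ptges3 and Ptges3-ps sum differed by -0.004 between Mrps12ep/ep and control livers. With 1 mouse left out, in hearts between Mrps12ep/ep and controls, AC158975.2 ranged from -0.014 to 0.078, AL731706.1 from -0.139 to 0.083, Cop1 from -0.094 to 0.087, Hmgb1 from -0.011 to 0.053, Ptges3 from -0.050 to 0.124 and Ube2v2 from -0.006 to 0.156. In hearts between Mrps12ha/ha and controls, AL731706.1 ranged from -0.081 to 0.007, Ptges3 from -0.161 to 0.012 and Ube2v2 from -0.272 to 0.033, and against Mrps12ep/ep AL731706.1 from -0.117 to 0.104. In livers between Mrps12ep/ep and controls, Gm15387 ranged from -0.097 to 0.149, Hmgb1 from -0.056 to 0.156 and Zfp236 from -0.077 to 0.239, and Hmgb1 between Mrps12ha/ha and Mrps12ep/ep livers from -0.016 to 0.196.

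The planned count-model alternatives were not run, because the deposited values carry separators that kept them from being entered as counts. The shallowest library, with 11202864 reads, limits the lowest genes, and 3 mice a group limit every comparison.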
